A study of Mus musculus with 28 samples.

Results

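Cultured GS cells were compared with whole adult testis on 4 of the 28 single-colour (Cy3) Agilent mouse arrays of a series on germ cell genomes, the 2 arrays titled GS and the 2 titled testis. GS cells, in the field's usual sense of these letters, are germline stem cells, spermatogonial stem cells kept dividing in culture. Here they came from male DBA/2 mice. Testis was whole tissue from adult male C57BL/6J mice. No genetic change, drug or sorting step is named for either group. The labels give culture at 37 °C in 5% CO2, but they name no growth factor, feeder layer or passage, and they do not say whether the 2 arrays of a group came from separate cultures or animals. The p-values below thus reflect only how far these samples lie apart, set against a spread that all 28 arrays share, and that distance may be technical. Strain, culture and cell makeup differ together between the groups and cannot be told apart, and in bulk RNA neither can fewer cells of a type and less RNA per cell.

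In the testis, stem cells divide on the wall of the seminiferous tubule and give rise to Kit-positive spermatogonia, spermatocytes that pass through meiosis, and haploid spermatids that build the acrosome, the tail and the protamine-packed nucleus of the sperm. Sertoli cells inside the tubule supply GDNF and other signals to the stem cells, and Leydig cells outside it make testosterone. Sex chromosomes are silenced in spermatocytes, and many germ cell genes on autosomes encode late substitutes for enzymes whose usual form is X-linked. Cultured GS cells are usually kept on embryonic fibroblasts with GDNF.

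Each array was scaled by the 75th percentile of its own signals over the 7227 probes that each of the 28 arrays showed well above background, so a level of 0 is that percentile and a level of -10 is close to the dimmest signals that could be measured. The lowest signal well above background lay between -10.72 and -9.82 log2 units on these 4 arrays, on which 70.9% to 76.7% of probes were well above background. All 4 arrays shared 1 slide and 1 scan day. Differences are GS minus testis on the log2 scale, given with the standard error (SE) of a limma fit to all 28 arrays, and a Benjamini-Hochberg adjusted p under 0.05 was called. Each SE thus also holds the spread of the other cell types, and 16 of the 28 arrays had under 50% of probes well above background. A gene may fail to pass through that spread. With only the 4 arrays in the fit 16566 genes were called, against 14323. Where no array of the dimmer group was well above background, the fold change is given as a lower bound ("at least"). Where 1 array of the dimmer group was above background, as on the GS side for Adam2, Crisp2, Gk2, H1f7 and Stra6, the fitted difference is given.

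The 2 GS arrays were less alike than the 2 testis arrays. Across the 30302 genes tested, the median absolute difference was 0.61 log2 units between the GS arrays and 0.11 between the testis arrays. GS replicate 1 lay more than 1 log2 unit above replicate 2 for 19.6% of genes and more than 1 unit below it for 7.67%, while the testis arrays stood that far apart for 1.59%. The excess in replicate 1 included fibroblast genes. Of the 39 tested fibroblast and matrix genes, 37 lay more than 1 unit higher in GS replicate 1 than in replicate 2, with a median of 2.65, and replicate 1 lay above replicate 2 by any amount for 39 of them, against 56.9% of all genes. GS replicate 1 was the highest of all 28 arrays for 38 of the 39, a trait that was not counted over all genes. Their median level was 1.22 in GS replicate 1 and -1.93 in GS replicate 2, against -5.65 and -5.98 in testis. Xist, a noncoding RNA of the silenced X chromosome in female cells, was looked at after the other values were seen and had levels of -3.31 and -5.85 in GS cells, against -12.11 and -11.44 in testis, where neither array was well above background (at least 46.1-fold higher, adjusted p = 3.44e-06). It was thus present on both GS arrays, which the labels give as male, and higher on replicate 1. The part of fibroblast RNA in the results below was not tested, and results are given with and without GS replicate 1.

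Of the 30302 genes, 6084 were higher and 8239 lower in GS cells, 20.1% and 27.2% of those tested and 47.3% together. The remaining 15979 did not pass, and 16094 genes had an unadjusted p under 0.05. The lists below hold named genes only, and these were called more often than all genes. Of the 11593 named genes tested, 3254 were higher, 3207 were lower and 5132 did not pass. On autosomes 27.4% of named genes were higher and 28.1% lower. The median difference over all genes was -0.15. Large differences lay mostly on the testis side. A difference of more than 5 log2 units was found for 2515 genes lower in GS cells and for 229 genes higher in them. Both testis arrays but no GS array were well above background for 2942 genes, and both GS arrays but no testis array for 1258. Without GS replicate 1, 15.2% of 31451 tested genes were higher and 23% lower, and 11356 of the 14323 calls were made again in the same direction and none in the other. The split depended on the scaling. Genes higher in GS cells made up 42.5% of calls with the scaling used here, and 53.8%, 54.5% and 54.5% with the percentile taken over all probes, with quantile normalization and with the deposited value table. Those settings moved the median of all genes by 0.42, 0.51 and 0.70 log2 units, so the direction of a difference smaller than these shifts depended on the scaling. Among the genes named below, Cldn5 and Eng apart, the calls of Aurka, Bcl6b, Birc5, Boll, Bub1, Ccnb2, Cetn2, Cox7b2, Crem, Cyct, Ddx4, Eif1ax, Foxm1, Hfm1, Id4, Ldha, Lhcgr, Mael, Nxt1, Plk1, Prps1, Prss50, Rpl39l, Stra6, Sycp3, Utp14b, Wt1 and Zbtb16 were lost under at least 1 other scaling or background correction. Where 1 to 3 members of a list were called in a direction, that count moved by at most 3 over the 16 alternatives.

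**Figure D1:**
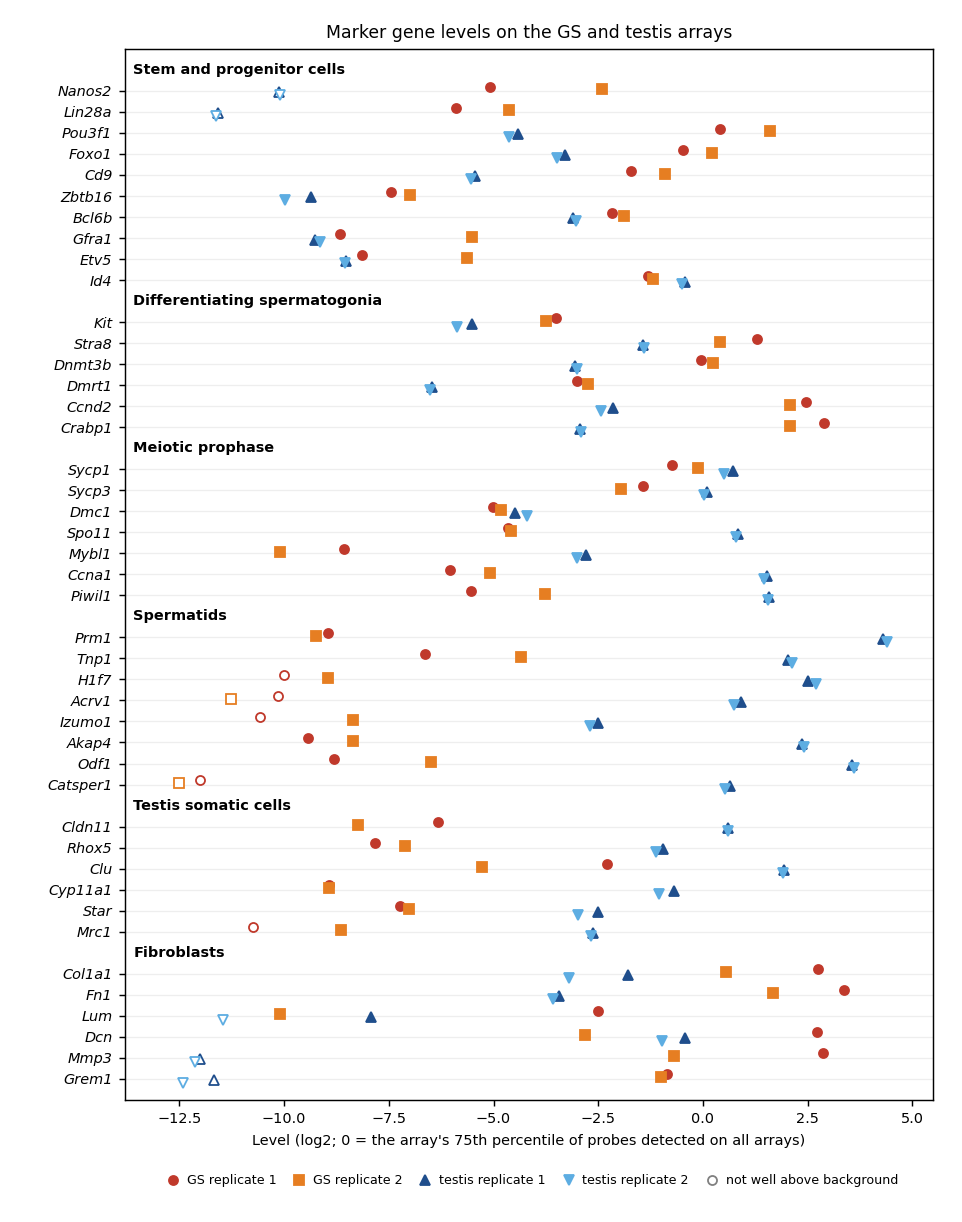
Levels of marker genes on each array, on the x axis in log2 units from the 75th percentile of the array's signals over the probes well above background on all 28 arrays; red circles and orange squares are GS replicates 1 and 2, dark and light blue triangles are testis replicates 1 and 2, and open symbols were not well above background. The spermatid genes Prm1 and Akap4 lie above 0 in testis and under -8 in GS cells. Tnp1 lies above -8 on both GS arrays, Odf1 does so on GS replicate 2, and Izumo1 lies below 0 in testis. Stem cell genes such as Pou3f1 lie to the right in GS cells, and the 2 GS arrays stand apart for Lum and Dcn.

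The promoters of 6 genes are shown first, as starting points for the gene groups below. Each is 300 bases of RefSeq sequence (GRCm38.p6), 250 before and 50 after the annotated start, written 5′ to 3′ along the gene. Prm1 and Tnp1 encode the proteins that replace histones in the sperm nucleus, and Nanos2 marks the stem cells. Izumo1, Ropn1 and Tcp11, all far lower in GS cells, were chosen because each window holds, in capitals, 1 of 3 strings of letters recognised by factors that drive testis genes.
Prm1, chr16:10796774-10797073, minus strand: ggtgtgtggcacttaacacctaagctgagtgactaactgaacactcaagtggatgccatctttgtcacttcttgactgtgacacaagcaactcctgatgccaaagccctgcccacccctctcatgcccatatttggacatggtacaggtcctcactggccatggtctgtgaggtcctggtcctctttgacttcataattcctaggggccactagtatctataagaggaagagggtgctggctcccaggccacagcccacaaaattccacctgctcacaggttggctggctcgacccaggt
Tnp1, chr1:73015850-73016149, minus strand: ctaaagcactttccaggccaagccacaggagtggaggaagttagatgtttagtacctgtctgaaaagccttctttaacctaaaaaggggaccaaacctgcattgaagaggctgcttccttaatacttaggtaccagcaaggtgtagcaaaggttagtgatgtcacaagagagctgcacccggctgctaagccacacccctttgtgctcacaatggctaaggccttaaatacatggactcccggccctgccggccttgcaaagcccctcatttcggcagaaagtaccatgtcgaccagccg
Nanos2, chr7:18987274-18987573, plus strand: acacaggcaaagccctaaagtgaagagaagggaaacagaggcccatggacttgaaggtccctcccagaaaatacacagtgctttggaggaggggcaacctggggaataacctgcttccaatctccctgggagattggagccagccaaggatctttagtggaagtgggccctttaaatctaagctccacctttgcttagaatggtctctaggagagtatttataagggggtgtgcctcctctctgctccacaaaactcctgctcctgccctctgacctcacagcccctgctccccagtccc
Izumo1, chr7:45621561-45621860, plus strand: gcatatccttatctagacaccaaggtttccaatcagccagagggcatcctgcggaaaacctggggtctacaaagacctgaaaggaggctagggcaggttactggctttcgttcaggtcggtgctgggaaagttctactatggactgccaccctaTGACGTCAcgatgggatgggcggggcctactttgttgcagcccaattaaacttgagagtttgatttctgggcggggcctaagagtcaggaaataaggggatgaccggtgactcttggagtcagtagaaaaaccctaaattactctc
Ropn1, chr16:34650961-34651260, plus strand: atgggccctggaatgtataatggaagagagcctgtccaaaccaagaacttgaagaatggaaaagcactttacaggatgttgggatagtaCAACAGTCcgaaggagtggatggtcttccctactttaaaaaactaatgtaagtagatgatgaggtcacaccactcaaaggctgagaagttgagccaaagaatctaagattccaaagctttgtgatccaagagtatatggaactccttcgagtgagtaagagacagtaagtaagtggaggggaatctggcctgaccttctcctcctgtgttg
Tcp11, chr17:28079715-28080014, minus strand: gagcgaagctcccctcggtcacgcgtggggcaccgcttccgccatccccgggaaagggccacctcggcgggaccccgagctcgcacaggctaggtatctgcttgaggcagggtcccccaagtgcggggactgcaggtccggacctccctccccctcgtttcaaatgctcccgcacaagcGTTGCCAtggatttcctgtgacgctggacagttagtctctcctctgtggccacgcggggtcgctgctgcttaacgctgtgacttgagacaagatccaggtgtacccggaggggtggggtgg
In Izumo1 the capitals mark TGACGTCA, the cyclic AMP response element (CRE) bound by CREM, starting 96 bases before the start of the gene. In Ropn1 they mark CAACNGTC, a site of the MYB type as bound by MYBL1, and in Tcp11 GTTGCCA, an RFX half-site as bound by RFX2. The RefSeq table holds 3 windows for Tcp11, at different annotated starts, and the 2 not shown hold 2 RFX half-sites each. Tcp11 encodes a sperm protein and had levels of -6.92 and -8.51 in GS cells, against 2.03 and 2.01 in testis (-9.73 ± 0.51, adjusted p = 9.4e-10).

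Windows were found for 9239 of the 11593 named genes tested, and letters were sought on both strands. The RFX half-site GTTGCCA occurred in 9.64% of the 633 genes with a window that were lower in GS cells by more than 5 log2 units, in 3.95% of the 2584 genes that were higher in GS cells and in 4.72% of all 9239. The MYB letters CAACNGTC occurred in 6%, 1.86% and 2.41% of the same sets, and the CRE letters TGACGTCA in 2.53%, 3.13% and 3.23%. Of the 111 genes that were higher in GS cells by more than 5 units, 5.41% held the RFX letters, 4.5% the CRE letters and 0% the MYB letters. Of the 80 genes with a window in the lists for spermatid chromatin, acrosome, flagellum and germline energy enzymes described below, 2.5% held the RFX letters and 1.25% the CRE letters, both under the shares of all 9239, and 6.25% held the MYB letters. The median GC content of the windows also differed, at 52.3%, 61.3% and 59.7% in the first 3 sets. The reverse complement of GTTGCCA ends in CAAC, with which CAACNGTC begins, so 1 stretch can hold both. In all, 14 strings were counted after differences were known, and the other 11 are not described. These are counts of letters, with no test, and a window without a match says only that those letters are not in it.

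Most genes of undifferentiated spermatogonia were higher in GS cells than in testis. In this list, 22 of the 31 tested genes were higher in GS cells, 2 were lower and 7 did not pass, with a median difference of 2.61 log2 units (2.47 with members at their bounds), and without GS replicate 1, 21 were higher and 1 lower of 31 tested. Nanos2, an RNA-binding protein that keeps stem cells undifferentiated, had levels of -5.08 and -2.41 in GS cells, against -10.13 and -10.1 in testis (at least 81.1-fold higher, adjusted p = 7.78e-05). Lin28a, which blocks maturation of let-7 RNAs, had -5.9 and -4.64 in GS cells, against -11.57 and -11.62 in testis (at least 28.5-fold higher, adjusted p = 1.12e-07). No testis array was well above background for either gene, and both GS arrays were. The POU factor Pou3f1, a GDNF target, had 0.40 and 1.59 in GS cells, against -4.42 and -4.63 in testis (5.52 ± 0.40, adjusted p = 2.88e-08). The forkhead gene Foxc2 had -4.33 and -3.15 in GS cells, against -9.94 and -10.69 in testis (at least 78.3-fold higher, adjusted p = 3.17e-07). Egr2, an immediate-early zinc finger gene, had -1.63 and -1.9 in GS cells, against -9.1 and -9.29 in testis (7.43 ± 1.37, adjusted p = 0.000289), and here the 2 GS arrays lay within 0.3 units of each other. Among members named after their values were seen, the surface protein Cd9 had -1.73 and -0.90 in GS cells, against -5.45 and -5.53 in testis (4.18 ± 0.34, adjusted p = 8.26e-08). Foxo1, which stem cells need for self-renewal, had -0.47 and 0.22 in GS cells, against -3.29 and -3.5 in testis (3.27 ± 0.24, adjusted p = 3.28e-08).

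Several widely used stem cell markers gave smaller differences. Gfra1, the co-receptor through which GDNF acts, had levels of -8.66 and -5.5 in GS cells, against -9.26 and -9.15 in testis (2.12 ± 1.21, adjusted p = 0.165). Etv5, an ETS factor downstream of GDNF, had -8.14 and -5.64 in GS cells, against -8.52 and -8.55 in testis (1.65 ± 0.72, adjusted p = 0.0721). For both, GS replicate 2 stood well above testis and replicate 1 by less than 1 unit, and without replicate 1 their adjusted p was 0.0428 and 0.00485. Zbtb16 (PLZF) had -7.44 and -6.99 in GS cells, against -9.36 and -9.98 in testis (2.46 ± 0.95, adjusted p = 0.0441). For Zbtb16, the threshold was not passed when any 1 of the 4 arrays was left out (adjusted p 0.0872 to 0.187). The GDNF target Bcl6b had -2.17 and -1.89 in GS cells, against -3.1 and -3.02 in testis (1.03 ± 0.28, adjusted p = 0.00617). Id4, an inhibitor of DNA-binding factors that marks stem cells, was lower, with -1.31 and -1.2 in GS cells, against -0.43 and -0.50 in testis (-0.79 ± 0.28, adjusted p = 0.0287). For Id4, the threshold was not passed when any 1 of the 4 arrays was left out (adjusted p 0.0625 to 0.12). Tspan8, a surface protein used to enrich stem cells, was the other lower member, with -7.62 and -7.6 in GS cells, against -3.69 and -4.05 in testis (-3.74 ± 0.83, adjusted p = 0.00136). Neurog3, a progenitor factor, had -5.74 and -6.62 in GS cells, against -6.67 and -6.74 in testis (0.53 ± 0.50, adjusted p = 0.425). In this list 14 genes lay more than 1 unit higher in GS replicate 2 than in replicate 1, and 0 the other way, the reverse of the fibroblast genes.

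Genes of differentiating spermatogonia were also mostly higher in GS cells: 10 of the 18 tested genes were higher in GS cells, 3 were lower and 5 did not pass, with a median difference of 2.17 log2 units, and without GS replicate 1, 10 were higher and 1 lower of 18 tested. Kit, the receptor that marks the step out of the stem cell pool, had levels of -3.51 and -3.74 in GS cells, against -5.52 and -5.87 in testis (2.07 ± 0.31, adjusted p = 3.81e-05). Crabp1, which binds retinoic acid in the cytoplasm, had 2.9 and 2.08 in GS cells, against -2.93 and -2.91 in testis (5.41 ± 0.45, adjusted p = 9.59e-08). Ccnd2, cyclin D2, had 2.47 and 2.07 in GS cells, against -2.14 and -2.43 in testis (4.55 ± 0.50, adjusted p = 1.59e-06). All these GS values lay above all testis values, and the share of all genes for which that holds was not counted. The transcription factor Dmrt1 had -3.01 and -2.73 in GS cells, against -6.46 and -6.52 in testis (3.62 ± 0.95, adjusted p = 0.00482). Usp26, an X-linked gene of the ubiquitin pathway, had -7.42 and -6.5 in GS cells, against -10.67 and -11.23 in testis (at least 8.84-fold higher, adjusted p = 0.00719). For Usp26, the threshold was not passed without GS replicate 2 (adjusted p = 0.0566) or without testis replicate 2 (adjusted p = 0.0517). Stra8, the retinoic acid target needed for entry into meiosis, had 1.3 and 0.40 in GS cells, against -1.43 and -1.41 in testis. The difference of Stra8 did not pass (2.27 ± 1.14, adjusted p = 0.113). Dazl, a germ cell RNA-binding protein, had 0.63 and 1.36 in GS cells, against -0.42 and -0.56 in testis (1.48 ± 0.72, adjusted p = 0.105, or 0.0271 with only the 4 arrays in the fit). Ddx4, the germ cell helicase expressed through meiosis, was lower in GS cells, with -0.77 and 0.10 in GS cells, against 1.19 and 1.24 in testis (-1.55 ± 0.49, adjusted p = 0.0151). For Ddx4, the threshold was not passed without GS replicate 1 (adjusted p = 0.151), without testis replicate 1 (adjusted p = 0.0592) or without testis replicate 2 (adjusted p = 0.07). The list's other lower genes were Hormad1 (-3.02 ± 0.62) and Prss50 (-2.23 ± 0.82), both active in meiotic cells, and for Prss50 the threshold was not passed when any 1 of the 4 arrays was left out (adjusted p 0.054 to 0.183).

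The receptors and ligands around the stem cell were called in both directions. In the GDNF, FGF and KIT list 7 of the 25 tested genes were higher in GS cells, 4 were lower and 14 did not pass, with a median difference of 0.39 log2 units, and without GS replicate 1, 4 were higher and 5 lower of 26 tested. The 44% called compares with 47.3% of all tested genes and lies under the share of named genes. The median was 0.076 without GS replicate 1, 0.25 without testis replicate 2 and 1.09 with the deposited value table. The FGF receptor Fgfr1 had levels of -3.31 and -4.74 in GS cells, against -8.3 and -8.3 in testis (4.27 ± 0.80, adjusted p = 0.000341). The cytokine Csf1, which acts on stem cells, had 0.31 and -1.06 in GS cells, against -5.33 and -5.73 in testis (5.15 ± 0.97, adjusted p = 0.000352). Gdnf had -2.22 and -3.9 in GS cells, against -5.3 and -5.38 in testis (2.28 ± 0.90, adjusted p = 0.0476). For Gdnf, the threshold was not passed without GS replicate 1 (adjusted p = 0.33), without testis replicate 1 (adjusted p = 0.131) or without testis replicate 2 (adjusted p = 0.146). Its level, like those of Csf1 and Fgfr1, was more than 1 unit higher in GS replicate 1 than in replicate 2. On the lower side, Gfra2, the receptor for the related ligand neurturin, had -10.28 and -12.71 in GS cells, against -5.36 and -5.21 in testis (at least 31.5-fold lower, adjusted p = 0.000133). The Notch ligand Jag1 had -5.34 and -7.15 in GS cells, against -2.2 and -2.07 in testis (-4.11 ± 1.08, adjusted p = 0.00479). For Jag1, the threshold was not passed without GS replicate 2 (adjusted p = 0.064). Kitl, the KIT ligand, had -3.11 and -5.67 in GS cells, against -3.44 and -3.73 in testis (-0.81 ± 0.70, adjusted p = 0.371, or 0.022 without GS replicate 1).

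About as many genes of meiotic prophase were lower in GS cells as were not, and their median lay nearer to 0 than those of the later germ cell genes below. Of the meiotic prophase list 2 of the 21 tested genes were higher in GS cells, 11 were lower and 8 did not pass, with a median difference of -1.76 log2 units (-1.36 with members at their bounds), and without GS replicate 1, 2 were higher and 7 lower of 21 tested. The median was -1.07 without GS replicate 1, and -0.89 with 8 lower genes after quantile normalization. With the deposited value table it was -1.06, with 6 lower genes. Spo11, the enzyme that makes the meiotic DNA breaks, had levels of -4.65 and -4.59 in GS cells, against 0.83 and 0.80 in testis (-5.43 ± 0.41, adjusted p = 3.8e-08). Terb1, which ties telomeres to the nuclear envelope, had -7.8 and -8.37 in GS cells, against -2.79 and -2.58 in testis (-5.4 ± 1.12, adjusted p = 0.000785). Hfm1, a crossover helicase, had -9.76 and -9.66 in GS cells, against -5.49 and -5.56 in testis (-4.18 ± 0.79, adjusted p = 0.000371). For all 3 the GS arrays lay more than 4 units below the testis arrays. Sycp3, of the chromosome axis, had -1.44 and -1.96 in GS cells, against 0.10 and 0.02 in testis (-1.76 ± 0.44, adjusted p = 0.00357), although its probes disagreed in sign. Sycp1, of the central element, had -0.74 and -0.10 in GS cells, against 0.72 and 0.51 in testis (-1.04 ± 0.58, adjusted p = 0.156). The recombinase Dmc1 had -5.0 and -4.81 in GS cells, against -4.49 and -4.21 in testis (-0.56 ± 0.47, adjusted p = 0.36). Neither Sycp1 nor Dmc1 passed. Trip13, an ATPase that strips HORMAD proteins from chromosomes and also acts in mitosis, was higher in GS cells, by 1.79 ± 0.25.

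Genes that switch on at the pachytene stage were almost all lower in GS cells: 0 of the 20 tested genes were higher in GS cells, 19 were lower and 1 did not pass, with a median difference of -6.64 log2 units, and without GS replicate 1, 0 were higher and 18 lower of 20 tested. Mybl1, the transcription factor A-MYB, had levels of -8.57 and -10.1 in GS cells, against -2.79 and -3.0 in testis (-6.44 ± 1.15, adjusted p = 0.00021). Ccna1, the meiotic cyclin A1, had -6.03 and -5.09 in GS cells, against 1.52 and 1.47 in testis (-7.05 ± 0.93, adjusted p = 1.14e-05). Piwil1, the PIWI protein of pachytene piRNAs, had -5.53 and -3.78 in GS cells, against 1.57 and 1.56 in testis (-6.22 ± 0.52, adjusted p = 1.06e-07). The 2 testis arrays agreed within 0.3 units for each of them. Gtsf1l, a germ cell zinc finger gene, had -10.27 and -9.89 in GS cells, against 2.6 and 2.63 in testis (-12.7 ± 0.35, adjusted p = 2.09e-12, 1 of 2 GS arrays well above background). Other low members were Adam2, a sperm surface protein (-12.65 ± 1.22), Spata16, needed for sperm head formation (-11.88 ± 1.01), and Papolb, a testis poly(A) polymerase (-9.45 ± 0.94). Hspa2, a chaperone of spermatocytes, had -4.07 and -4.39 in GS cells, against 1.38 and 1.33 in testis (-5.58 ± 0.58, adjusted p = 9.41e-07). Boll, an RNA-binding protein of the DAZ family, had -5.9 and -5.24 in GS cells, against -3.04 and -3.1 in testis (-2.5 ± 0.56, adjusted p = 0.00145). Calr3, a testis calreticulin, was the member that did not pass, at -6.16 and -5.66 in GS cells, against -6.12 and -6.16 in testis.

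Most genes for the nuclear proteins of spermatids were lower too. Of the chromatin packaging list 2 of the 16 tested genes were higher in GS cells, 12 were lower and 2 did not pass, with a median difference of -4.69 log2 units, and without GS replicate 1, 1 was higher and 12 lower of 16 tested. Prm1, protamine 1, had levels of -8.95 and -9.23 in GS cells, against 4.3 and 4.4 in testis (-13.44 ± 1.34, adjusted p = 6.11e-07). Tnp1, the transition protein, had -6.65 and -4.34 in GS cells, against 2.04 and 2.13 in testis (-7.58 ± 1.14, adjusted p = 4.21e-05), with GS replicate 2 more than 2 units above replicate 1. The linker histones Hils1 and H1f7 had -7.98 and -9.23 in GS cells, against 3.44 and 3.6 in testis (-12.12 ± 1.09), and -9.99 and -8.96 in GS cells, against 2.51 and 2.71 in testis (-12.08 ± 1.18). Tssk6, a kinase of condensing spermatids, differed by -11.08 ± 1.01. Among the regulators, Crem, the CRE-binding activator of spermatid genes, had -4.78 and -5.39 in GS cells, against -2.38 and -2.41 in testis (-2.69 ± 0.32, adjusted p = 4.35e-06). The ciliary and spermatid gene regulator Rfx2 had -6.65 and -8.03 in GS cells, against -1.13 and -1.06 in testis (-6.24 ± 0.40, adjusted p = 6.61e-09). Brdt, which reads acetylated histones, had -2.57 and -2.58 in GS cells, against 0.27 and 0.20 in testis (-2.81 ± 0.50, adjusted p = 0.000224). The list's higher genes were Gm773, which is X-linked (2.68 ± 1.00), and Cdyl, a chromodomain protein of many tissues (1.25 ± 0.41), both of which lost their calls when 1 array was left out. The adjusted p of Gm773 was 0.0587 to 0.183 for any array, and that of Cdyl reached 0.137. H2ac1, a histone H2A of the testis, did not pass, at 2.82 and 2.89 in GS cells, against 2.23 and 2.12 in testis (0.68 ± 0.47, adjusted p = 0.261).

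Acrosome and tail genes had the lowest medians of the 24 lists. Of the acrosome and fertilization list 0 of the 23 tested genes were higher in GS cells, 22 were lower and 1 did not pass, with a median difference of -7.86 log2 units, and without GS replicate 1, 0 were higher and 22 lower of 23 tested. Acr, the acrosomal protease, had levels of -9.25 and -9.85 in GS cells, against 0.23 and 0.13 in testis (-9.73 ± 1.28, adjusted p = 1.07e-05). Acrv1, of the acrosomal matrix, had -10.15 and -11.26 in GS cells, against 0.91 and 0.74 in testis (at least 2179-fold lower, adjusted p = 2.19e-07). Izumo1, the sperm protein that binds the egg, whose promoter is shown above, had -10.57 and -8.36 in GS cells, against -2.51 and -2.7 in testis (-6.86 ± 1.06, adjusted p = 5.44e-05, 1 of 2 GS arrays well above background). No GS array was well above background for Acrv1. Spaca1 and Zpbp, which shape the acrosome, differed by -7.23 ± 0.54 and -6.83 ± 0.85, Crisp2 by -12.63 ± 0.93, and the lysozyme-like Spaca3 was at least 5100-fold lower. Gopc, a Golgi protein used in many cell types, did not pass, at -1.53 and -2.84 in GS cells, against -1.48 and -1.46 in testis (adjusted p = 0.108, or 0.0034 without GS replicate 1).

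Of the flagellum list 0 of the 34 tested genes were higher in GS cells, 33 were lower and 1 did not pass, with a median difference of -8.48 log2 units, and without GS replicate 1, 0 were higher and 33 lower of 34 tested. Akap4, the X-linked main protein of the fibrous sheath, had levels of -9.43 and -8.35 in GS cells, against 2.36 and 2.41 in testis (-11.28 ± 1.53, adjusted p = 1.48e-05). Odf1, of the outer dense fibres, had -8.82 and -6.49 in GS cells, against 3.56 and 3.61 in testis (-11.24 ± 1.13, adjusted p = 6.93e-07). Catsper1, a subunit of the sperm calcium channel, had -12.0 and -12.51 in GS cells, against 0.64 and 0.52 in testis (at least 1843-fold lower, adjusted p = 8.32e-08). No GS array was well above background for Catsper1, whereas both were for Odf1. Smcp, of the mitochondrial capsule, was at least 7494-fold lower, and Ropn1, a fibrous sheath protein, was at least 8186-fold lower. Dnah8, a dynein heavy chain, had -3.28 and -3.03 in GS cells, against 2.45 and 2.59 in testis (-5.68 ± 0.58, adjusted p = 8.56e-07). Tekt2, tektin 2, differed by -5.89 ± 0.86. Oaz3, the testis antizyme, and Cby2 differed by -12.89 ± 0.96 and -12.29 ± 1.47. Prkaca, a kinase subunit shared with all cells, was the member that did not pass, at -7.58 and -8.44 in GS cells, against -6.76 and -6.78 in testis (adjusted p = 0.31).

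**Figure D2:**
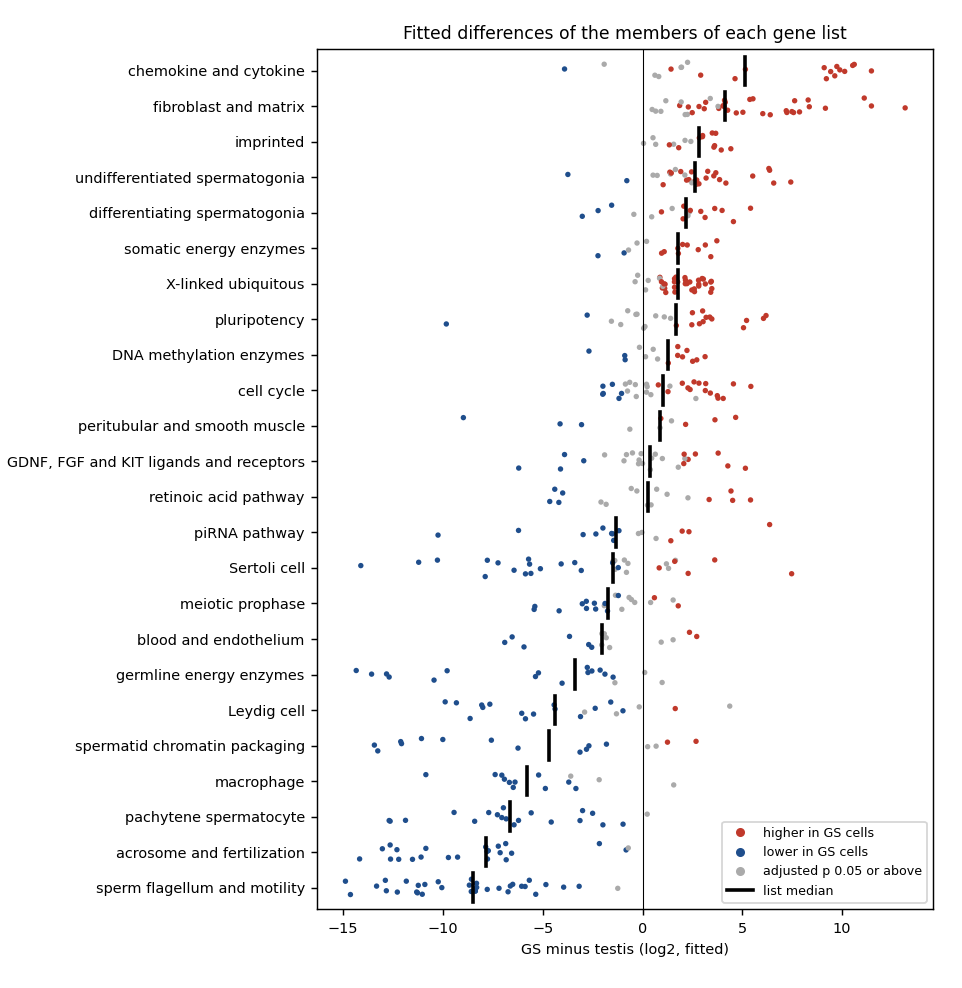
Fitted difference GS minus testis (x axis, log2 units) of each tested member of the 24 gene lists; red points were higher and blue points lower in GS cells with adjusted p under 0.05, grey points did not pass, and black bars are list medians. The flagellum and acrosome lists have medians of -8.48 and -7.86, and the fibroblast list has no blue point. Points of genes that were not measured on 1 side are fitted values and no bounds.

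Energy enzymes split between a list mostly, but not only, of germline forms and a list of widely used enzymes, which are not matched pairs throughout. In the germline list 0 of the 18 tested genes were higher in GS cells, 15 were lower and 3 did not pass, with a median difference of -3.4 log2 units. In the list of widely used enzymes 10 of the 15 tested genes were higher in GS cells, 2 were lower and 3 did not pass, with a median difference of 1.77 log2 units. Without GS replicate 1 the counts were 0 higher and 13 lower of 18, and 9 higher and 3 lower of 15. Gapdhs, the sperm form of the glycolytic enzyme GAPDH, had levels of -10.0 and -10.73 in GS cells, against 3.18 and 3.25 in testis (at least 11475-fold lower, adjusted p = 6.56e-08). Pgk2, the sperm phosphoglycerate kinase, had -11.85 and -10.39 in GS cells, against 1.68 and 1.74 in testis (at least 3590-fold lower, adjusted p = 5.45e-08). Neither was well above background on a GS array. Ldhc, the sperm lactate dehydrogenase, was measured on all 4 arrays, with -3.17 and -2.28 in GS cells, against 2.47 and 2.51 in testis (-5.22 ± 0.34, adjusted p = 8.38e-09). Cyct, testis cytochrome c, had -2.22 and -0.39 in GS cells, against 0.85 and 0.80 in testis (-2.13 ± 0.55, adjusted p = 0.00452). For Cyct, the threshold was not passed without GS replicate 1 (adjusted p = 0.106). The glycerol kinase Gk2 differed by -12.7 ± 1.34, and the sterol carrier gene Scp2d1 was at least 7460-fold lower. Slc25a31, the germ cell ADP/ATP carrier, did not pass, at -1.18 and -0.32 in GS cells, against -1.73 and -1.72 in testis (0.98 ± 0.55, adjusted p = 0.162).

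In the list of widely used enzymes, the glucose transporter Slc2a1 (GLUT1) had levels of -0.32 and -0.64 in GS cells, against -4.11 and -4.3 in testis (3.72 ± 0.32, adjusted p = 1.39e-07). Subunits of cytochrome c oxidase showed the split within 1 complex. Cox8a had 2.87 and 2.59 in GS cells, against 0.01 and -0.13 in testis (2.79 ± 0.33, adjusted p = 3.47e-06), while the germ cell form Cox8c had -4.33 and -2.97 in GS cells, against 1.76 and 1.67 in testis (-5.37 ± 0.60, adjusted p = 2.07e-06). The X-linked Cox7b had -0.57 and -1.2 in GS cells, against -3.93 and -4.13 in testis (3.15 ± 0.42, adjusted p = 1.18e-05), while the autosomal Cox7b2 had -1.44 and -0.07 in GS cells, against 1.94 and 2.02 in testis (-2.74 ± 0.60, adjusted p = 0.00124). In both pairs the usual subunit was higher and the germ cell subunit lower in GS cells. Ldha was lower, with 2.41 and 1.6 in GS cells, against 2.89 and 2.96 in testis (-0.93 ± 0.30, adjusted p = 0.0176). For Ldha, the threshold was not passed without GS replicate 2 (adjusted p = 0.222), without testis replicate 1 (adjusted p = 0.0639) or without testis replicate 2 (adjusted p = 0.086).

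Germline defence and DNA methylation genes differed member by member. In the piRNA list 4 of the 16 tested genes were higher in GS cells, 9 were lower and 3 did not pass, with a median difference of -1.31 log2 units, and without GS replicate 1, 4 were higher and 6 lower of 16 tested. Other scalings gave fewer lower genes, with 4 higher and 3 lower with the deposited value table, and 4 higher and 5 lower after quantile normalization. The median of -1.31 was -0.61 with the deposited value table and -0.83 without GS replicate 1. Tdrd6, a scaffold of the spermatid chromatoid body, had levels of -10.33 and -9.76 in GS cells, against 0.19 and 0.23 in testis (-10.25 ± 1.12, adjusted p = 1.49e-06, 1 of 2 GS arrays well above background). Pld6, a mitochondrial nuclease of piRNA biogenesis, differed by -2.98 ± 0.48. Piwil2, the PIWI protein of spermatogonia and spermatocytes, had 1.17 and 1.65 in GS cells, against 1.65 and 1.58 in testis, and its arrays overlapped (-0.21 ± 0.25, adjusted p = 0.545). Mael had 0.21 and 0.78 in GS cells, against 1.96 and 2.04 in testis (-1.51 ± 0.47, adjusted p = 0.0155). For Mael, the threshold was not passed without GS replicate 1 (adjusted p = 0.115), without testis replicate 1 (adjusted p = 0.0585) or without testis replicate 2 (adjusted p = 0.0737). Morc1, a silencer of transposons, was higher by 1.42 ± 0.52, but the threshold was not passed without GS replicate 2 (adjusted p = 0.417), without testis replicate 1 (adjusted p = 0.0958) or without testis replicate 2 (adjusted p = 0.125), and without GS replicate 1 the difference was 2.23.

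In the DNA methylation list 8 of the 15 tested genes were higher in GS cells, 3 were lower and 4 did not pass, with a median difference of 1.29 log2 units, and without GS replicate 1, 8 were higher and 2 lower of 15 tested. With the deposited value table the median was 1.99. Dnmt3b, a methyltransferase that sets new marks, had levels of -0.05 and 0.23 in GS cells, against -3.06 and -3.02 in testis (3.13 ± 0.31, adjusted p = 5.11e-07). Dnmt1, which copies marks at replication, had -2.14 and -1.27 in GS cells, against -4.24 and -4.18 in testis (2.51 ± 0.49, adjusted p = 0.00045). For both, the GS arrays lay above the testis arrays by 2 units or more. Dnmt3l, the cofactor without catalytic activity, went the other way, with -3.69 and -4.58 in GS cells, against -1.26 and -1.63 in testis (-2.69 ± 0.82, adjusted p = 0.0131). For Dnmt3l, the threshold was not passed without GS replicate 2 (adjusted p = 0.0968) or without testis replicate 1 (adjusted p = 0.0734). Dnmt3a had -3.69 and -3.19 in GS cells, against -4.09 and -4.3 in testis (0.75 ± 0.37, adjusted p = 0.106). Gadd45a, a stress gene linked to demethylation, had -2.52 and -3.77 in GS cells, against -5.79 and -5.94 in testis (2.72 ± 0.55, adjusted p = 0.000653). Uhrf1, the partner of Dnmt1, had -2.17 and -0.95 in GS cells, against -2.08 and -2.11 in testis (adjusted p = 0.287, or 0.0382 without GS replicate 1).

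Pluripotency genes were partly higher in GS cells: 13 of the 25 tested genes were higher in GS cells, 2 were lower and 10 did not pass, with a median difference of 1.69 log2 units, and without GS replicate 1, 11 were higher and 3 lower of 27 tested. Pou5f1 (Oct4), which germ cells share with embryonic stem cells, had levels of -0.06 and 2.33 in GS cells, against -1.97 and -1.78 in testis (3.01 ± 0.59, adjusted p = 0.00046), and without GS replicate 2 the difference was 1.81. Sox2 had -6.63 and -0.94 in GS cells, against -11.27 and -8.42 in testis (6.06 ± 1.17, adjusted p = 0.000436), with the GS arrays more than 5 units apart, and without GS replicate 2 the difference was 3.22. Dppa3 (Stella) had -4.59 and -3.83 in GS cells, against -10.38 and -10.42 in testis (at least 59.4-fold higher, adjusted p = 2.78e-09). Trim71, a let-7 target, had -4.53 and -3.92 in GS cells, against -9.39 and -9.48 in testis (5.21 ± 0.46, adjusted p = 1.68e-07). Nanog was not well above background on both arrays of either group and was not tested. Nr0b1, which is X-linked and also a gene of Sertoli and Leydig cells, was lower, with -11.89 and -12.41 in GS cells, against -2.39 and -2.24 in testis (at least 248-fold lower, adjusted p = 2.59e-07).

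Among the testis's own somatic cells, most tested markers of Sertoli cells, Leydig cells and macrophages were lower in GS cells. The blood and endothelium list and the peritubular and smooth muscle list, given in the next paragraph, were not mostly lower. Of the Sertoli cell list 5 of the 31 tested genes were higher in GS cells, 17 were lower and 9 did not pass, with a median difference of -1.5 log2 units, and without GS replicate 1, 6 were higher and 15 lower of 31 tested. The median was -2.43 without GS replicate 2, with 3 higher genes, -2.08 without GS replicate 1 and -0.80 with the deposited value table. Cst9, a cystatin, had levels of -12.03 and -12.71 in GS cells, against 1.77 and 1.73 in testis (at least 4137-fold lower, adjusted p = 3.79e-08). Ptgds, prostaglandin D synthase, had -9.69 and -10.43 in GS cells, against 1.26 and 1.05 in testis (at least 2379-fold lower, adjusted p = 2.37e-07). Cldn11, of the blood-testis barrier, had -6.33 and -8.24 in GS cells, against 0.59 and 0.61 in testis (-7.89 ± 0.80, adjusted p = 7.57e-07). The X-linked homeobox gene Rhox5 had -7.84 and -7.11 in GS cells, against -0.95 and -1.11 in testis (-6.44 ± 0.42, adjusted p = 7.78e-09). Clu, clusterin, a secreted chaperone, had -2.29 and -5.27 in GS cells, against 1.93 and 1.92 in testis (-5.71 ± 0.69, adjusted p = 4.13e-06), with GS replicate 1 more than 2 units above replicate 2. The transcription factor Sox9, which sets the Sertoli cell fate, had -4.25 and -4.55 in GS cells, against -3.6 and -3.74 in testis (-0.73 ± 0.67, adjusted p = 0.398). Wt1, a zinc finger factor, had -5.29 and -3.44 in GS cells, against -2.87 and -2.86 in testis (-1.5 ± 0.56, adjusted p = 0.0371). For Wt1, the threshold was not passed without GS replicate 1 (adjusted p = 0.482), without testis replicate 1 (adjusted p = 0.115) or without testis replicate 2 (adjusted p = 0.121), and without GS replicate 2 the difference was -2.43. The activin subunit Inhba, made by many cultured cells, was higher, with 1.91 and 0.10 in GS cells, against -6.38 and -6.55 in testis (7.47 ± 1.33, adjusted p = 0.000205).

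Of the Leydig cell list 1 of the 20 tested genes was higher in GS cells, 15 were lower and 4 did not pass, with a median difference of -4.41 log2 units (-3.75 with members at their bounds), and without GS replicate 1, 0 were higher and 16 lower of 20 tested. With normexp background correction the median was -2.87. Cyp11a1, which starts steroid synthesis from cholesterol, had levels of -8.93 and -8.94 in GS cells, against -0.69 and -1.05 in testis (-8.06 ± 1.01, adjusted p = 6.29e-06). Hsd17b3, the last enzyme of testosterone synthesis, had -9.06 and -9.06 in GS cells, against -0.95 and -1.15 in testis (-8.01 ± 0.96, adjusted p = 4.18e-06). Star, which brings cholesterol into mitochondria, had -7.23 and -7.02 in GS cells, against -2.49 and -2.99 in testis (-4.39 ± 0.94, adjusted p = 0.00109). Lhcgr, the receptor for luteinizing hormone, was at least 5.95-fold lower. In macrophages 0 of the 14 tested genes were higher in GS cells, 11 were lower and 3 did not pass, with a median difference of -5.8 log2 units (-4.99 with members at their bounds), and without GS replicate 1, 0 were higher and 8 lower of 14 tested. Leaving out either testis array left 7 lower, and the median was -2.57 with normexp and -3.68 after quantile normalization. The mannose receptor Mrc1 had -10.74 and -8.65 in GS cells, against -2.62 and -2.67 in testis (-7.05 ± 1.02, adjusted p = 2.84e-05, 1 of 2 GS arrays well above background). Adgre1 (F4/80) was at least 27.1-fold lower. Aif1, an actin-binding protein of macrophages, had -9.09 and -8.45 in GS cells, against 2.0 and 2.19 in testis (-10.86 ± 1.43, adjusted p = 1.04e-05). Cd14 lay on the other side but did not pass, with -3.68 and -5.54 in GS cells, against -6.19 and -6.15 in testis (1.56 ± 1.47, adjusted p = 0.417). In the blood and endothelium list 2 of the 15 tested genes were higher in GS cells, 6 were lower and 7 did not pass, with a median difference of -2.04 log2 units, and without GS replicate 1, 1 was higher and 6 lower of 15 tested. The 53.3% called did not exceed the share of named genes. The median was -1.16 with normexp, -1.21 after quantile normalization and -1.34 with the deposited value table. Hba-a1, alpha globin, had -7.91 and -8.92 in GS cells, against -1.42 and -1.6 in testis (-6.91 ± 1.91, adjusted p = 0.00706). Endothelial members went in both directions. Cldn5 was lower (-3.66 ± 0.59), Cdh5 did not pass (-1.92 ± 1.00, adjusted p = 0.13), and Eng was higher (2.35 ± 0.70, adjusted p = 0.0107). Without GS replicate 1 the difference of Eng was 1.25. In peritubular and smooth muscle 4 of the 10 tested genes were higher in GS cells, 3 were lower and 3 did not pass, with a median difference of 0.90 log2 units, and without GS replicate 1, 3 were higher and 2 lower of 10 tested. The median was 0.52 without GS replicate 1 and 1.6 with the deposited value table, and 2 genes were higher without testis replicate 2. There the smooth muscle actin Actg2 differed by -8.98 ± 1.37, while Acta2, which fibroblasts also make, had -1.81 and -3.3 in GS cells, against -3.4 and -3.46 in testis (0.87 ± 0.96, adjusted p = 0.491).

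Fibroblast and matrix genes were mostly higher in GS cells, and none was lower: 30 of the 39 tested genes were higher in GS cells, 0 were lower and 9 did not pass, with a median difference of 4.14 log2 units (4.11 with members at their bounds), and without GS replicate 1, 22 were higher and 0 lower of 39 tested. The median difference from testis was 5.6 for GS replicate 1 and 3.05 for replicate 2. Fn1, fibronectin, had levels of 3.38 and 1.67 in GS cells, against -3.43 and -3.57 in testis (6.03 ± 0.56, adjusted p = 3e-07). Fbln2, fibulin 2, had 3.19 and 1.22 in GS cells, against -6.7 and -7.22 in testis (9.16 ± 0.86, adjusted p = 3.34e-07). Mmp3, a matrix protease, had 2.87 and -0.70 in GS cells, against -12.0 and -12.14 in testis (at least 2342-fold higher, adjusted p = 4.02e-05). Grem1, a BMP antagonist, had -0.86 and -1.01 in GS cells, against -11.68 and -12.42 in testis (at least 577-fold higher, adjusted p = 1.18e-06). Both GS arrays lay far above testis for these 4 genes. Others were far higher on GS replicate 1 than on replicate 2. Lum, lumican, had -2.51 and -10.09 in GS cells, against -7.94 and -11.45 in testis (adjusted p = 0.174, 1 of 2 testis arrays well above background, or 0.00561 without GS replicate 2), and Dcn, decorin, had 2.72 and -2.81 in GS cells, against -0.43 and -0.97 in testis (0.66 ± 1.83, adjusted p = 0.801). Col1a1, the main collagen, had 2.75 and 0.55 in GS cells, against -1.79 and -3.19 in testis (4.14 ± 1.06, adjusted p = 0.004). For Col1a1, the threshold was not passed without GS replicate 1 (adjusted p = 0.0675) or without testis replicate 2 (adjusted p = 0.0521).

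Chemokine and cytokine genes were also mostly higher in GS cells, and more so on replicate 1. In this list 14 of the 21 tested genes were higher in GS cells, 1 was lower and 6 did not pass, with a median difference of 5.15 log2 units, and without GS replicate 1, 11 were higher and 1 lower of 21 tested. Among the 10 members well above background on all 4 arrays the median was 2.58. GS replicate 1 exceeded replicate 2 by a median of 2.26. Replicate 1 was the highest of the 28 arrays for 14 of the 22 members on the array, a trait that was not counted over all genes. Ccl2, which attracts monocytes, had levels of 2.34 and 0.42 in GS cells, against -9.99 and -10.19 in testis (at least 2773-fold higher, adjusted p = 1.94e-06). Il6 had -1.73 and -3.0 in GS cells, against -12.25 and -12.25 in testis (at least 214-fold higher, adjusted p = 4.27e-05). The neutrophil chemokine Cxcl1 had 1.42 and -0.83 in GS cells, against -9.2 and -9.07 in testis (9.43 ± 2.05, adjusted p = 0.0012). Saa3, an acute-phase gene, had 4.12 and -1.66 in GS cells, against -7.91 and -9.09 in testis (9.74 ± 1.13, adjusted p = 2.89e-06), with more than 5 units between the GS arrays.

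**Figure D3:**
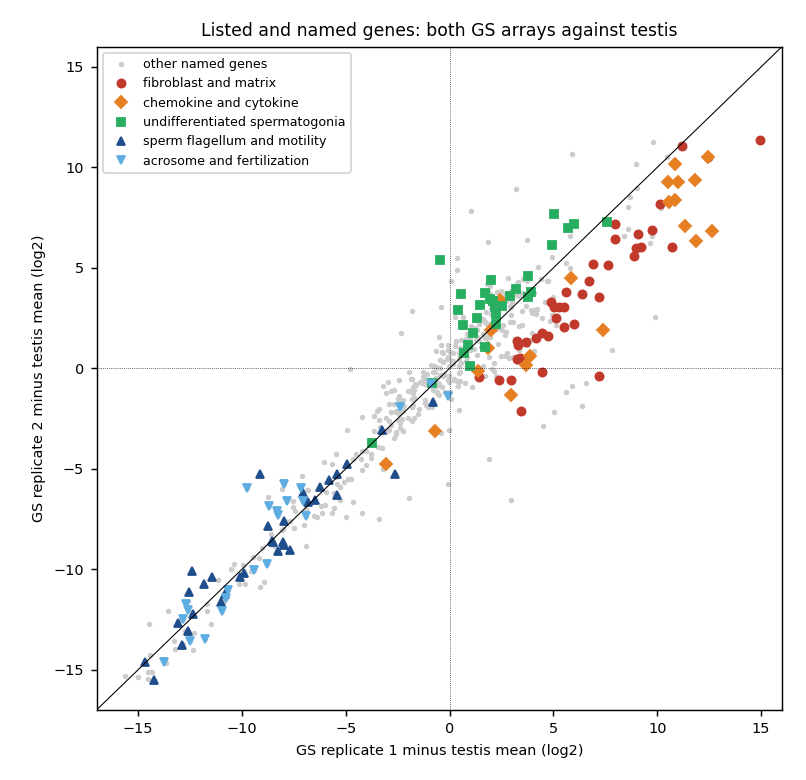
Difference from the testis mean of GS replicate 1 (x axis) and of GS replicate 2 (y axis), in log2 units, for the listed and named genes; the solid line marks equality. Fibroblast and chemokine genes lie mostly below the line, with list medians of 5.6 and 3.05 for the fibroblast genes, undifferentiated spermatogonia genes lie mostly above it, and sperm genes lie along it.

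The genes that most separated the 2 GS arrays differed in kind between the directions, given here as a description. The 10 with the largest excess in replicate 1 were Ogn, Ifi211, Lum, Ptn, Sfrp4, Svep1, Kng1, Agtr2, Podn and Colec10, among them the small matrix proteoglycans Ogn, Lum and Podn. Ogn had levels of -1.51 and -10.99 in GS cells, against -4.17 and -4.74 in testis, so that testis lay between the 2 GS arrays. The 10 with the largest excess in replicate 2 were Rxrg, Sox2, T, Upb1, Zic1, Kcnc2, Sall3, Col13a1, Nefm and Gsx1, among them the developmental transcription factors Sox2, T, Zic1, Sall3 and Gsx1. Rxrg, a retinoid receptor, had -8.48 and -1.67 in GS cells, against -9.41 and -9.61 in testis (4.43 ± 1.45, adjusted p = 0.0193). For Rxrg, the threshold was not passed without GS replicate 2 (adjusted p = 0.474), without testis replicate 1 (adjusted p = 0.0676) or without testis replicate 2 (adjusted p = 0.0823), and without GS replicate 1 the difference was 7.83. T (brachyury) had -10.13 and -4.28 in GS cells, against -9.34 and -10.0 in testis (2.47 ± 1.58, adjusted p = 0.22, 1 of 2 GS arrays well above background). Zic1 had -5.64 and -0.90 in GS cells, against -11.69 and -11.42 in testis (at least 114-fold higher, adjusted p = 7.44e-05).

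Cell cycle genes went in both directions. In this list 15 of the 32 tested genes were higher in GS cells, 6 were lower and 11 did not pass, with a median difference of 1.03 log2 units, and without GS replicate 1, 17 were higher and 4 lower of 32 tested. Without GS replicate 2 the median was 0.55, with 12 higher and 8 lower. With the deposited value table the median was 1.73, with 15 higher and 0 lower. Ccnd1, cyclin D1, had levels of 1.44 and 1.09 in GS cells, against -3.97 and -4.35 in testis (5.43 ± 0.38, adjusted p = 1.71e-08). Cdt1, which licenses replication origins, had 1.02 and 1.67 in GS cells, against -2.58 and -2.81 in testis (4.04 ± 0.24, adjusted p = 4.15e-09). The replicative helicase subunits Mcm2 and Mcm5 differed by 3.78 ± 0.47 and 2.28 ± 0.32, and Rrm2, of nucleotide synthesis, by 1.99 ± 0.22. The 6 lower members were Plk1, Ccnb2, Aurka, Bub1, Birc5 and Foxm1, known for roles in G2 or mitosis. Aurkb, also a mitotic kinase, was higher, by 1.28 ± 0.49, but the threshold was not passed without GS replicate 2 (adjusted p = 0.295), without testis replicate 1 (adjusted p = 0.153) or without testis replicate 2 (adjusted p = 0.112). The list was not divided or tested by phase. Of these, Bub1 and Foxm1 did not pass without GS replicate 1 (adjusted p = 0.362 and 0.309), without testis replicate 1 or without testis replicate 2, Bub1 differed by -1.84 without GS replicate 2, and Ccnb2 differed by -1.15 without GS replicate 1, against -2.0 ± 0.39 with all arrays. Plk1 had -2.08 and -1.12 in GS cells, against 0.43 and 0.34 in testis (-1.99 ± 0.31, adjusted p = 5.47e-05). Aurka had -0.48 and 0.41 in GS cells, against 1.88 and 1.99 in testis (-1.97 ± 0.28, adjusted p = 2.21e-05). Ccna2, cyclin A2, was higher, with -1.45 and -0.07 in GS cells, against -3.92 and -3.89 in testis (3.14 ± 0.32, adjusted p = 8.3e-07).

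Retinoic acid genes had as many higher as lower members. In this list 4 of the 17 tested genes were higher in GS cells, 4 were lower and 9 did not pass, with a median difference of 0.25 log2 units, and without GS replicate 1, 4 were higher and 3 lower of 17 tested. The 47.1% called compares with 47.3% of all tested genes and lies under the share of named genes. The median ran from 0.12 without GS replicate 2 to 0.95 with the deposited value table. Crabp1, given above, and Crabp2, which had levels of -0.82 and -1.14 in GS cells, against -5.49 and -5.5 in testis (4.51 ± 0.34, adjusted p = 3.8e-08), are cellular binding proteins. Aldh1a1, which makes retinoic acid and is high in Sertoli and Leydig cells, had -0.51 and -5.03 in GS cells, against 1.55 and 1.3 in testis (-4.2 ± 1.04, adjusted p = 0.00337). For Aldh1a1, the threshold was not passed without GS replicate 2 (adjusted p = 0.0862), while without GS replicate 1 the difference was -6.46. Rdh11, a retinal reductase, had -3.5 and -4.34 in GS cells, against 0.69 and 0.77 in testis (-4.65 ± 0.30, adjusted p = 7.46e-09). Stra6, the membrane receptor for retinol-binding protein, differed by -4.0 ± 1.03, where the threshold was not passed without GS replicate 1 (adjusted p = 0.0634).

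Imprinted genes, expressed from 1 parental allele in the body, were higher or did not pass: 11 of the 17 tested genes were higher in GS cells, 0 were lower and 6 did not pass, with a median difference of 2.85 log2 units (2.67 with members at their bounds), and without GS replicate 1, 9 were higher and 0 lower of 17 tested. With normexp the median was 1.67. Phlda2, a growth restrainer of the placenta, had levels of -4.21 and -4.14 in GS cells, against -8.68 and -8.52 in testis (4.42 ± 0.53, adjusted p = 3.82e-06). Mest had -3.82 and -3.68 in GS cells, against -6.61 and -6.89 in testis (3.0 ± 0.39, adjusted p = 8.22e-06). The 2 GS arrays agreed within 0.2 units for both. Dlk1 had -0.69 and -3.17 in GS cells, against -5.41 and -5.67 in testis (3.61 ± 0.59, adjusted p = 9.3e-05). Cdkn1c, a cell cycle inhibitor, had 0.64 and -0.55 in GS cells, against -3.46 and -3.44 in testis (3.49 ± 0.41, adjusted p = 2.86e-06). Both were higher on GS replicate 1 than on replicate 2 by more than 1 unit. Without GS replicate 1 the difference of Dlk1 was 2.37. Ndn, necdin, differed by 3.94 ± 0.65. Dcn, a fibroblast gene given above, belongs to this list too. Over the list GS replicate 1 exceeded replicate 2 by a median of 1.2, but the list was split. Replicate 1 lay above replicate 2 for 9 of the 17 genes and below it for 8.

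Genes on the X chromosome were higher in GS cells than those on autosomes. Among genes that all 4 arrays measured well above background, the median difference was 1.37 for 331 X-linked genes and 0.14 for 9759 autosomal genes, a shift of 1.23. It was 1.21 for each GS array taken alone. The medians of the 19 autosomes ran from -0.06 to 0.29. Of the X-linked genes, 51.1% were higher and 11.8% lower, against 28.5% and 25.2% of the autosomal genes. A difference between chromosomes on the same array does not depend on a constant scaling of that array. These are descriptions over genes, with no test.

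**Figure D4:**
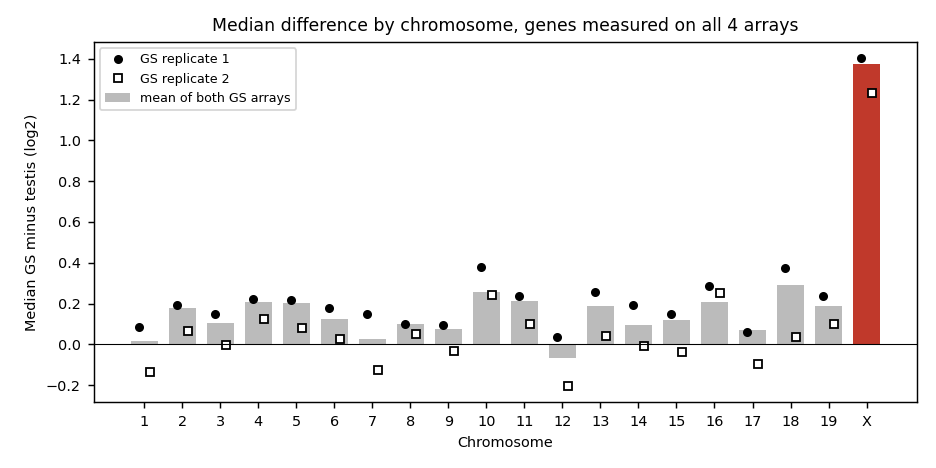
Median difference GS minus testis (y axis, log2 units) of the genes of each chromosome (x axis) that all 4 arrays measured well above background; bars use the mean of both GS arrays, filled circles GS replicate 1 and open squares GS replicate 2. The X chromosome stands at 1.37, and autosomes lie between -0.06 and 0.29.

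Most X-linked genes used in many tissues were higher in GS cells: 31 of the 37 tested genes were higher in GS cells, 0 were lower and 6 did not pass, with a median difference of 1.76 log2 units, and without GS replicate 1, 30 were higher and 1 lower of 37 tested. Hprt, of purine salvage, had levels of 0.09 and -0.25 in GS cells, against -2.24 and -2.22 in testis (2.15 ± 0.26, adjusted p = 4.49e-06). G6pdx, of the pentose phosphate pathway, had -0.97 and -1.25 in GS cells, against -2.7 and -2.76 in testis (1.62 ± 0.30, adjusted p = 0.000281). The RNA helicase Ddx3x had -2.64 and -2.36 in GS cells, against -5.85 and -6.09 in testis (3.47 ± 0.49, adjusted p = 2e-05). For these 3 genes each GS value lay above each testis value, a trait that was not counted over all genes. Not all X-linked genes were higher, since 65 of the 408 tested were lower, Akap4, Rhox5 and Nr0b1 among them.

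Of 12 pairs of an X-linked gene and its autosomal relative in which both were tested, 6 had opposite calls, each with the X-linked gene higher and the relative lower in GS cells. Of all tested X-linked genes 46.6% were higher, and of all named autosomal genes tested 28.1% were lower. How often pairs drawn from all genes have such calls was not counted. The 6 include Cox7b and Cox7b2, given above. There were 3 such pairs after quantile normalization, and 4 with the deposited value table or without GS replicate 2. Cetn2, the centrin of all cells, had levels of -2.05 and -1.95 in GS cells, against -2.9 and -2.84 in testis (0.87 ± 0.26, adjusted p = 0.0111), whereas Cetn1, the centrin of sperm and cilia, had -9.7 and -9.07 in GS cells, against 0.63 and 0.73 in testis (-10.06 ± 1.09, adjusted p = 1.46e-06). For Cetn2 the threshold was not passed without GS replicate 2 (adjusted p = 0.0507) or without testis replicate 1 (adjusted p = 0.0626). The ribosomal protein Rpl39 had 2.6 and 2.02 in GS cells, against -0.25 and -0.34 in testis (2.6 ± 0.30, adjusted p = 2.44e-06). Its testis form Rpl39l had -0.50 and 0.37 in GS cells, against 2.17 and 2.16 in testis (-2.23 ± 0.29, adjusted p = 7.91e-06). Among further pairs, Utp14a and Utp14b, of ribosome assembly, differed by 2.14 ± 0.35 and -2.89 ± 0.81, and for Utp14b the threshold was not passed without GS replicate 2 (adjusted p = 0.0566). Prps1 and Prps1l1, of nucleotide synthesis, differed by 1.6 ± 0.34 and -8.71 ± 0.99. Ubl4a differed by 1.08 ± 0.28, while Ubl4b was at least 2534-fold lower. The other 6 pairs did not have opposite calls. Cstf2, of mRNA 3′ end processing, was higher by 2.59 ± 0.34, with probes that disagreed in sign, and its relative Cstf2t had -0.13 and 0.49 in GS cells, against 0.14 and 0.21 in testis. Rpl36a was higher by 3.91 ± 0.25, while Rpl36al had 1.42 and 1.45 in GS cells, against 1.21 and 1.28 in testis (adjusted p = 0.468). Eif1ax, a translation initiation factor, was higher by 0.59 ± 0.24, Eif1a differed by -0.36 ± 0.40 and did not pass, and for Eif1ax the threshold was not passed when any 1 of the 4 arrays was left out (adjusted p 0.0766 to 0.167). Nxt2 did not pass (0.59 ± 0.43), while Nxt1, of RNA export, was lower (-2.36 ± 0.33, adjusted p = 1.99e-05). Tspyl2 and Tspyl1 ran the other way, with -0.65 ± 0.42 for Tspyl2, which did not pass, and 2.0 ± 0.45 for Tspyl1 (adjusted p = 0.00143). Of the ubiquitin-conjugating enzymes Ube2a and Ube2b, neither passed (-0.37 ± 0.31 and -0.30 ± 0.32).

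Outside the lists, the genes with the largest positive differences included Cck, Mcpt8, Ereg, Spp1, Cd276, Socs3, Tbx15, Crct1 and Tcim. Cck, the peptide cholecystokinin, had levels of 0.31 and 0.34 in GS cells, against -10.21 and -10.11 in testis (at least 1373-fold higher, adjusted p = 4.13e-05), with the GS arrays within 0.1 units of each other. Spp1, osteopontin, had 3.05 and 2.99 in GS cells, against -6.28 and -5.66 in testis (8.99 ± 0.45, adjusted p = 5.99e-10). Cd276, an immune checkpoint ligand, had -0.17 and -0.37 in GS cells, against -8.88 and -8.88 in testis (8.61 ± 0.59, adjusted p = 1.46e-08). Mcpt8, a serine protease of basophils, had -1.94 and -0.45 in GS cells, against -11.19 and -12.25 in testis (at least 481-fold higher, adjusted p = 4.76e-05). Socs3, a cytokine feedback inhibitor, had -1.48 and -2.02 in GS cells, against -9.53 and -10.57 in testis (8.3 ± 0.81, adjusted p = 4.84e-07, 1 of 2 testis arrays well above background). Tbx15, a mesenchymal transcription factor, had GS arrays more than 3 units apart, and differed by 7.94 ± 1.17.

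The 10 with the largest negative differences were Spz1, Cst8, Iqcf3, Plaat5, Znrf4, Spem2, Tex43, Pabpc2, Ubqlnl and Cmtm2b. Spz1, a transcription factor of the testis, had levels of -12.03 and -11.71 in GS cells, against 3.58 and 3.68 in testis (at least 15214-fold lower, adjusted p = 1.54e-07). Cst8, a cystatin of testis and epididymis, had -12.02 and -10.26 in GS cells, against 2.35 and 2.59 in testis (-13.61 ± 0.99, adjusted p = 2.83e-08, 1 of 2 GS arrays well above background). Znrf4, a ubiquitin ligase of sperm, had -9.57 and -9.88 in GS cells, against 3.15 and 3.22 in testis (-12.91 ± 1.18, adjusted p = 2.52e-07). Their testis arrays lay within 0.3 units of each other. Pabpc2 encodes a poly(A)-binding protein. Iqcf3, Pabpc2 and Cmtm2b were at least 10071-fold, 7512-fold and 6947-fold lower in GS cells.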

How the data were processed

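RNA from GS cells and testis was hybridised to 1-colour Agilent arrays, 2 per group, among 28 arrays in 14 groups. Spot intensity was deposited as processed signal from Agilent Feature Extraction 10.5.1.1, per the file headers and the submitters' processing notes, which background-adjusts each spot and does not scale arrays to each other. The deposited value table holds log2 processed signal minus the median of each array, as found by setting each of its columns against that array's scanner values (99% of probes within 0.0025).

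Of 43803 probes, 514 flagged as non-uniform were left out, and none was saturated. Names came from RefSeq accessions (GRCm38.p6): 16746 probes matched 13133 symbols, and 27057 did not match. The log2 processed signal was scaled to the 75th percentile of the 7227 probes well above background on all 28 arrays. For a gene with several probes the one with the highest mean was used. Of 1869 called genes with several measured probes, 194 had a probe of the opposite sign. A gene was tested where both arrays of GS cells or of testis were well above background. Means of 14 groups were fitted with limma 3.58.1 in R 4.3.3 (lmFit and eBayes, 14 residual degrees of freedom), after a check on simulated data. There, GS levels were set equal to testis, and 50 genes at each size were changed among 28544. Set changes of 1, 2, 4 and 8 log2 units were called for 4%, 44%, 60% and 100% of the changed genes. A far larger share of genes was called in the data, and the adjusted p depends on that share. The percentages of the check thus need not hold for this comparison. A gene that did not pass may still differ. A lower bound sets the brighter group's mean against, per array, the higher of the dim probe's signal and the lowest signal well above background.

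The named genes were, in each of 24 lists (696 genes, 512 on the array), the best known members and the 4 called members with the largest difference, outside the lists the 10 largest in each direction, the X-linked and autosomal pairs, and the 10 that most separated the GS arrays. Cd9, Foxo1, Tspan8, Hormad1, Prss50, Trip13, Rfx2, Calr3, H2ac1, Gm773, Cdyl, Gopc, Prkaca, Cox8c, Inhba, Aurka, Aurkb, Bub1, Birc5, Foxm1, Ccnb2, Cldn5, Eng, Tcp11 and Xist were named after their values were seen. Some genes that these rules pick are not reported here. The lists and members were chosen with earlier results of these data known. The normexp alternative used the median spot signal and the median local background. The array number limits the precision.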

Additional observations from a re-analysis of the deposited data

How the results depend on the processing

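The comparison was repeated under 16 alternatives. Of these, 4 left out 1 array, and there the lone array of its group is assumed to vary like the other groups. The number of genes changed was 14323, and it ran from 10380 to 17269 over the 16 alternatives. Without 1 array it ran from 10635 to 12228. Lower genes numbered 5072 where only genes well above background on all 4 arrays were tested, a filter that leaves out genes measured in testis alone. A call had the opposite direction for 13 genes with the mean of probes and for none under the other 15 alternatives. With the replicate block 14098 genes changed, 13998 of them also called without it. Same-numbered arrays share only a number, and the correlation of their deviations was 0.097. With slide as a random block 17269 genes changed. No list median changed sign under the 16 alternatives, and of 181 named genes with a call that were followed 135 kept it under every alternative that tested them. The shift of X-linked genes was 1.26 with quantile normalization, 1.0 with normexp, 1.05 without a filter, 1.21 with the mean of probes and 1.21 to 1.24 without 1 array; the cause was not tested. Some named genes without a call changed sign. Over the settings without 1 array, their differences were -0.019 to 0.48 for Calr3, -1.16 to 5.61 for Colec10, -0.31 to 0.31 for Cstf2t, -2.11 to 3.43 for Dcn, -1.89 to 6.36 for Ifi211, -2.08 to 0.47 for Kitl, -2.16 to 5.03 for Kng1 and -0.40 to 7.18 for Lum. They were -6.54 to 2.94 for Ogn, -0.45 to 0.035 for Piwil2, -0.89 to 5.91 for Podn, -2.86 to 4.51 for Ptn, -1.8 to 2.84 for Sall3, -0.74 to 6.57 for Svep1, -0.074 to 1.14 for Uhrf1 and -0.46 to 5.39 for T. Differences with the percentile taken over all probes were 0.056 for Eif1a, 0.21 for Piwil2, 0.041 for Ube2a and 0.11 for Ube2b. Differences with the deposited table were 0.14 for Dmc1, 0.34 for Eif1a, 0.49 for Piwil2, 0.048 for Tspyl2, 0.33 for Ube2a and 0.40 for Ube2b. Differences with the mean of probes were 0.75 for Eif1a and 0.48 for Ube2a. Differences after quantile normalization were 0.028 for Eif1a, 0.33 for Piwil2, 0.068 for Ube2a and 0.093 for Ube2b. Low signal limits the fold changes, which are bounds where a group was not well above background.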
